A study of Rattus norvegicus with 27 samples.

Results

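Matrix metalloproteinases are secreted enzymes that cut the proteins of the extracellular matrix, and fibroblasts are a main source of both that matrix and several of the enzymes. They are made as inactive precursors, become active when the propeptide is removed, and are held in check by the tissue inhibitors of metalloproteinases (TIMPs), which bind the active site. In lung, the balance between these enzymes and their inhibitors is studied in scarring and in emphysema. The 4 genes described here are Mmp2 (gelatinase A), Mmp9 (gelatinase B), Mmp3 (stromelysin-1) and their inhibitor Timp1. They were taken by Ensembl rat gene ID (ENSRNOG00000016695, ENSRNOG00000017539, ENSRNOG00000032626 and ENSRNOG00000010208) and are 4 of the 32753 IDs in the count table. No value served as the rule, but the choice was made with earlier results of these data known. The table holds no gene symbols, so each name is the one given with its ID when the 4 genes were chosen. All 4 were among the 14258 genes with enough reads to be tested.

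The data were RNA-seq counts from 27 libraries. Each came from primary fibroblasts of the lungs of Sprague-Dawley rats, which are outbred. Per the labels, cells carrying the surface antigen CD90 were taken from lung with magnetic beads and cultured on a soft silicone elastomer (polydimethylsiloxane, PDMS, of 3 to 5 kPa) or on rigid plastic. Both surfaces were coated with rat collagen I at 38 µg/ml, so the substrates shared the coating and differed in the material beneath it. On PDMS there were 4 libraries at each of days 2, 4, 7 and 14. On plastic there were 4 at day 4, 3 at day 7 (replicates 1, 3 and 4) and 4 at day 14. The column names of the count table mark every library as WT, MonoCulture and Non, without saying what Non stands for. No genotype, transgene or added drug separates the groups, and the labels give no animal ages. The labels do not tie libraries to animals or cultures, so p-values here rest on the spread from library to library, which may in part be technical. The fibroblast label could not be checked against marker genes, because none of the 32753 IDs could be matched to a symbol.

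Library totals were 17.3 M to 25.3 M counts, with a median of 21.2 M. Levels are CPM (counts scaled to a common library size) on library sizes scaled by the trimmed mean of M values, and they depend on transcript length, so they are not compared between genes. Every fold change is a log2 difference from edgeR's quasi-likelihood test over all 27 libraries, with its standard error, and a gene was called changed when its Benjamini-Hochberg adjusted p over all 14258 genes was under 0.05. In such bulk libraries, a change in the share of cells that make a transcript and a change in the amount per cell cannot be told apart. Beyond their groups, 5 libraries (set A) and 6 others (set B) shared on/off genes that the labels do not explain, and calls that change when either set is left out are given with and without it. A test for any difference among the 7 groups called all 4 genes, with edgeR adjusted p = 0.000134 for Mmp2, 0.0480 for Mmp3, 0.00867 for Mmp9 and 7.35e-06 for Timp1. The Mmp3 call was lost in 19 of 27 fits with 1 library left out, with the replicate number as a block (edgeR adjusted p = 0.0524) and in limma-voom (adjusted p = 0.403), and limma-voom also lost that of Mmp9 (adjusted p = 0.0580). The test called 57.2% of all genes, so a call by it is common in these data.

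Mmp2 and Timp1 were several-fold higher at day 14 than at the earliest days, on PDMS and on plastic, and neither was called different between the substrates on any day. Mmp9 fell on PDMS, and was called lower on PDMS than on plastic only when days 4, 7 and 14 were averaged. That average called 7.04% of all genes, and the Mmp9 call was lost in 12 of 23 fits with 1 library left out. Mmp3 was low and variable, with 1 called difference, a rise on plastic between days 4 and 14. That comparison called 32.6% of all genes, and the Mmp3 call was lost in 7 of 8 fits with 1 library left out. The averaged Mmp9 call and this Mmp3 call were both lost in limma-voom.

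**Figure D1:**
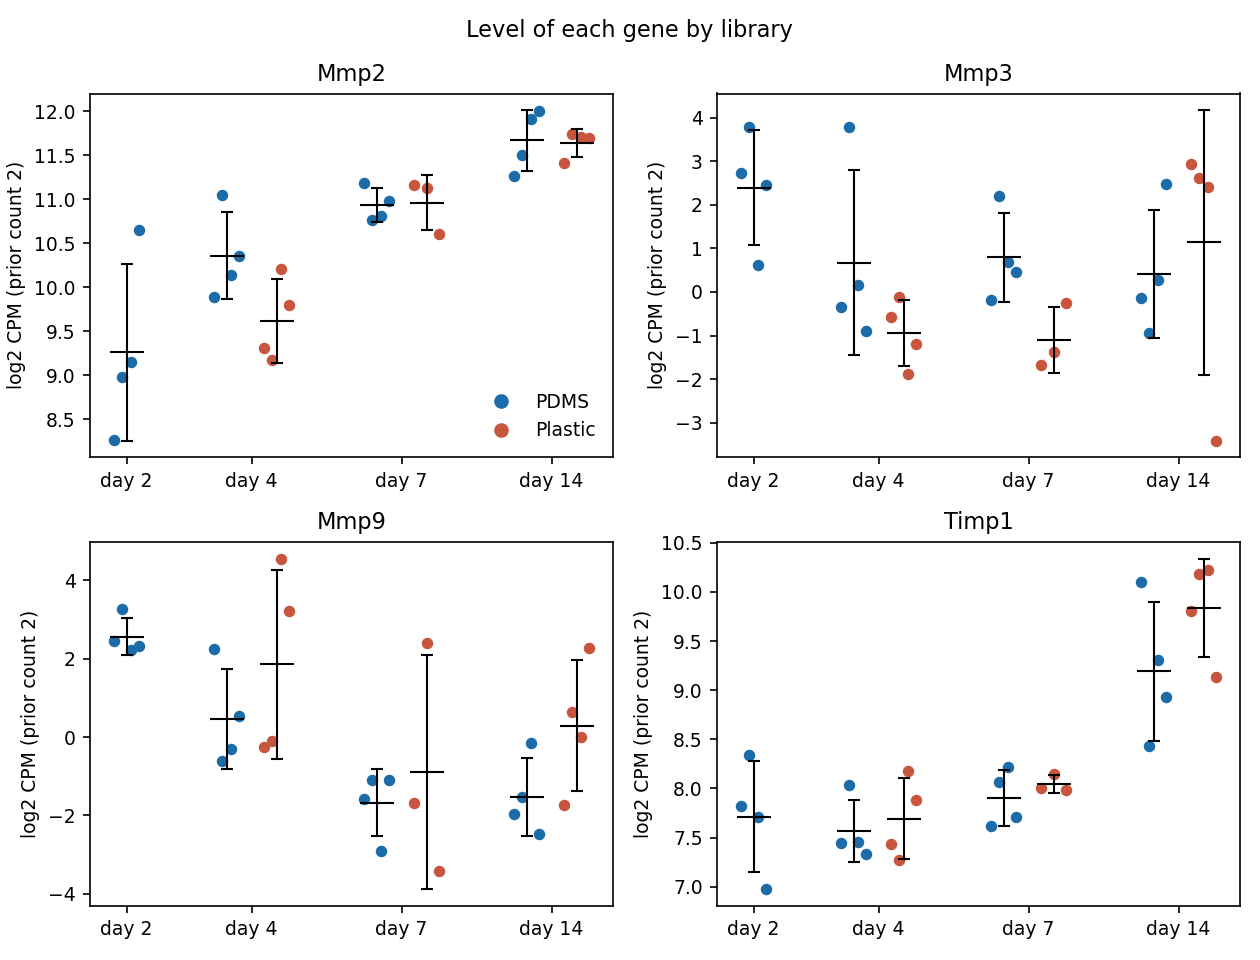
Log2 CPM (prior count 2) of Mmp2, Mmp3, Mmp9 and Timp1 in each of the 27 libraries (points), by day of culture, with PDMS in blue to the left of plastic in red, and the group mean and standard deviation (lines). All day 14 libraries lie above the earlier ones for Mmp2 and Timp1, while the replicates of single groups are spread widely for Mmp3 and Mmp9. The share of all genes whose day 14 libraries lie apart in this way was not taken.

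Mmp2 encodes gelatinase A, which cuts denatured collagen and the collagen IV of basement membranes and is made by resting as well as activated fibroblasts. On PDMS its level was 307, 507, 568 and 1615 CPM at day 2, 952, 2128, 1127 and 1314 CPM at day 4, 2337, 1740, 1794 and 2025 CPM at day 7, and 2466, 2905, 3849 and 4094 CPM at day 14. On plastic it was 634, 577, 1186 and 889 CPM at day 4, 2291, 2234 and 1557 CPM at day 7, and 2721, 3428, 3353 and 3317 CPM at day 14. The 8 libraries of day 14 all lay above the 19 others, and replicate 4 of PDMS day 2 stood well above the other libraries of its group. The share of all genes that split those 8 from the 19 was not taken. The group means on PDMS were 749 ± 588 CPM at day 2, 1380 ± 520 CPM at day 4, 1974 ± 272 CPM at day 7 and 3328 ± 770 CPM at day 14 (SD, n = 4 each). The means on plastic were 822 ± 279 CPM at day 4 (SD, n = 4), 2027 ± 408 CPM at day 7 (SD, n = 3) and 3205 ± 326 CPM at day 14 (SD, n = 4). From the highest mean to the lowest, the groups ran PDMS and then plastic at day 14, plastic and then PDMS at day 7, PDMS and then plastic at day 4, and PDMS at day 2. Of the neighbours in that order, only Plastic day 14 and Plastic day 7 had ranges that did not overlap.

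Mmp2 rose 4.44-fold between PDMS day 14 and PDMS day 2, a log2 difference of 2.15 ± 0.37 (SE; edgeR adjusted p = 0.000111), a comparison in which 51.6% of all genes were called, 24.3% were called higher and 40% were split without overlap in either direction. Against PDMS day 4, PDMS day 14 was higher by 1.27 ± 0.36 on the log2 scale (edgeR adjusted p = 0.0155), where 28.6% of genes were called, 13.4% were called higher and 33.3% were split without overlap. That call was lost without PDMS day 4 replicate 1, where the difference was 1.14 (edgeR adjusted p = 0.0502) and 18.2% of genes were called. On plastic, day 14 exceeded day 4 by 1.96 ± 0.37 (edgeR adjusted p = 0.000818), in a comparison that called 32.6% of genes, called 14.3% higher and split 27.5% without overlap. Without set A, which leaves 2 plastic libraries a day, that difference was 1.54 and not called (edgeR adjusted p = 0.154), and 0.338% of genes were called. Between day 4 and day 2 on PDMS, 1 library decided the call. Day 4 exceeded day 2 by 0.88 ± 0.36 with all libraries (edgeR adjusted p = 0.114), where 10% of genes were called. Without PDMS day 2 replicate 4, the highest of its group, it did so by 1.60 (edgeR adjusted p = 0.000776). That fit called 23.2% of genes, so the gain was not particular to Mmp2. Steps between neighbouring days were not called: 0.52 ± 0.36 for PDMS day 7 against day 4, 0.75 ± 0.36 for PDMS day 14 against day 7, 1.30 ± 0.39 for Plastic day 7 against day 4 and 0.66 ± 0.39 for Plastic day 14 against day 7 (edgeR adjusted p = 0.648, 0.184, 0.147 and 0.462 in that order). In the last 3 of those steps the later day's libraries lay above the earlier day's without overlap. Groups that did not overlap, in either direction, were seen for 23%, 13.5% and 14.6% of all genes in those 3 comparisons. For Plastic day 7 against day 4, Mmp2 was called without Plastic day 4 replicate 3, at 1.56 (edgeR adjusted p = 0.0418), in a fit that called 3.71% of genes. With all libraries edgeR called 0% of genes there, 2665 genes had an unadjusted p under 0.05, DESeq2 called 388 genes, Mmp2 among them (DESeq2 adjusted p = 0.0333), and limma-voom called 2.

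Timp1 encodes a secreted inhibitor that binds the active site of most matrix metalloproteinases and also forms a complex with the precursor of Mmp9. On PDMS its level was 226, 325, 209 and 126 CPM at day 2, 174, 263, 175 and 162 CPM at day 4, 196, 268, 298 and 210 CPM at day 7, and 1101, 345, 633 and 486 CPM at day 14. On plastic it was 173, 155, 289 and 235 CPM at day 4, 257, 284 and 253 CPM at day 7, and 896, 1162, 1193 and 562 CPM at day 14. All 8 libraries of day 14 again lay above the 19 others, which stayed between 126 and 325 CPM. The share of all genes with that split was not taken. Between single groups, day 14 lay apart without overlap, in either direction, for 40% of genes against PDMS day 2. Against day 4 it did so for 33.3% on PDMS and 27.5% on plastic. Within PDMS day 14 the libraries differed more than in any earlier group, with replicate 1 highest and replicate 2 closest to the earlier days. The means on PDMS were 222 ± 81.6 CPM at day 2, 193 ± 46.7 CPM at day 4, 243 ± 48.3 CPM at day 7 and 641 ± 328 CPM at day 14 (SD, n = 4 each). On plastic they were 213 ± 61.3 CPM at day 4 (SD, n = 4), 265 ± 16.7 CPM at day 7 (SD, n = 3) and 953 ± 293 CPM at day 14 (SD, n = 4). From high to low the means ran plastic and then PDMS at day 14, plastic and then PDMS at day 7, PDMS at day 2, and plastic and then PDMS at day 4, and only PDMS day 14 and Plastic day 7 were neighbours without overlap.

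Timp1 was called higher at day 14 than at every earlier day on both substrates, and no difference between earlier days was called. Plastic day 14 exceeded Plastic day 4 by 2.16 ± 0.33 on the log2 scale, a 4.47-fold difference (edgeR adjusted p = 0.000180). PDMS day 14 exceeded PDMS day 4 by 1.73 ± 0.32, or 3.32-fold (edgeR adjusted p = 0.00170), and PDMS day 2 by 1.53 ± 0.32, or 2.90-fold (edgeR adjusted p = 0.000546). In that order, those 3 comparisons called 32.6%, 28.6% and 51.6% of all genes, and called 14.3%, 13.4% and 24.3% higher. The 3 Timp1 calls held whichever single library was left out. The plastic difference was 1.47, and not called, without set A (edgeR adjusted p = 0.109). PDMS day 14 also exceeded PDMS day 7, by 1.40 ± 0.32 (edgeR adjusted p = 0.0231), in a comparison that called 5.53% of genes and called 2.92% higher. That call was lost in 5 of 8 fits with 1 library left out: without replicate 1, 2 or 4 of PDMS day 7 the differences were 1.28, 1.43 and 1.34 (edgeR adjusted p = 0.0518, 0.0952 and 0.0700), and without replicate 1 or 3 of PDMS day 14 they were 1.01 and 1.41 (edgeR adjusted p = 0.0505 and 0.0763). Of all genes, those 5 fits called 2.64%, 0.0351%, 0.435%, 4.93% and 0.155% in that order, so most genes called with all libraries lost their calls in some of them. Plastic day 14 exceeded Plastic day 7 by 1.85 ± 0.36 (edgeR adjusted p = 0.0415), where 0.0842% of genes were called and 0.021% were called higher. The size of that difference stayed between 1.72 and 2.03 with each library left out in turn, but the call was lost in all 7 such fits (edgeR adjusted p = 0.0521 to 0.289). Those fits called between 0 and 4 of all genes, against 12 with all libraries, so the loss was not particular to Timp1. Between earlier days the differences were small: −0.20 ± 0.31 for PDMS day 4 against day 2, 0.33 ± 0.31 for PDMS day 7 against day 4 and 0.31 ± 0.34 for Plastic day 7 against day 4 (edgeR adjusted p = 0.719, 0.793 and 0.622 in that order).

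The Timp1 value carries 1 limit of annotation. In the RefSeq table of assembly GRCr8, Timp1 lies inside Syn1, a synapsin gene on the opposite strand, and the sources used here do not give the strand setting of the counting. Reads from the shared stretch can be told apart only if both the libraries and the counting kept strand, and neither was checked. Mmp2, Mmp3 and Mmp9 overlapped no other gene in that table. The RefSeq promoter table held entries for 2 of the 4 genes, Mmp3 and Timp1. They are shown because both genes are known to respond to the transcription factor AP-1, whose core motif is TGANTCA. The Timp1 stretch, chrX:3771212-3771241 on the minus strand of GRCr8, holds the related heptamer TGAGTAA, in capitals, which starts 108 bases before the gene's start.
Timp1: cagtgggtggaTGAGTAAtgcgtccaggaa
The Mmp3 stretch, chr8:12925031-12925280 on the plus strand of GRCr8, is the 250 bases before the gene's start. Its capitals mark the same heptamer, TGAGTAA, whose first base lies 144 bases before the start. They also mark a match to the AP-1 core, TGAGTCA, beginning 71 bases before the start. The last capitals are a TATA box sequence, TATAAA, beginning 32 bases before it.
Mmp3: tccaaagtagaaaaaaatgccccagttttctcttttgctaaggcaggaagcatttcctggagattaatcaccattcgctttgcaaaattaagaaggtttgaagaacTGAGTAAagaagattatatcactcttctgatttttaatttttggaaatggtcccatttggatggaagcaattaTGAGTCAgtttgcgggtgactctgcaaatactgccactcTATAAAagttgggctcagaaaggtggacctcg
Searched on both strands over the 250 bases before the start of 33469 RefSeq promoters, TGANTCA was present in 6.34%, TGAGTAA in 2.38% and TATAAA in 12.9%. The first 2 motifs differ in the letter before the last, C against A, and cannot match at the same bases of 1 strand. The matches describe letters only, and whether any factor binds there was not measured.

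Mmp9 encodes gelatinase B, which cuts much the same substrates as gelatinase A and is known mainly from inflammatory cells and from cells stimulated by cytokines. Its counts were low, between 0 and 527 reads per library. On PDMS its level was 5.37, 9.57, 4.55 and 4.94 CPM at day 2, 4.63, 0.561, 0.713 and 1.37 CPM at day 4, 0.237, 0.373, 0.0399 and 0.370 CPM at day 7, and 0.164, 0.254, 0.808 and 0.0848 CPM at day 14. On plastic it was 0.751, 0.831, 23.5 and 9.25 CPM at day 4, 0.218, 5.23 and 0 CPM at day 7, and 0.205, 1.46, 0.898 and 4.78 CPM at day 14. The 0 is replicate 4 of Plastic day 7, where the depth allows a level of up to 0.172 CPM (3 counts; counting error only). All 8 PDMS libraries of days 7 and 14 were under 1 CPM, below every PDMS library of day 2, whereas each plastic group held at least 1 library over 4 CPM and at least 1 under it. On PDMS, 40% of all genes split day 14 from day 2 without overlap in either direction. The share for day 7 against day 2 was not taken for levels. The means on PDMS were 6.11 ± 2.34 CPM at day 2, 1.82 ± 1.91 CPM at day 4, 0.255 ± 0.157 CPM at day 7 and 0.327 ± 0.327 CPM at day 14 (SD, n = 4 each). On plastic they were 8.59 ± 10.7 CPM at day 4 (SD, n = 4), 1.82 ± 2.96 CPM at day 7 (SD, n = 3) and 1.84 ± 2.03 CPM at day 14 (SD, n = 4). From high to low the means ran Plastic day 4, PDMS day 2, Plastic day 14, PDMS day 4, Plastic day 7, PDMS day 14 and PDMS day 7, and every pair of neighbours overlapped.

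Mmp9 fell by 4.23 ± 1.29 on the log2 scale between PDMS day 14 and PDMS day 2 (edgeR adjusted p = 0.00944), in a comparison that called 27.3% of genes lower. With each library left out in turn the difference was −5.14 to −3.91 and the call held (edgeR adjusted p = 0.0103 to 0.0300). No step within that interval was called. The differences were −1.74 ± 1.13 for day 4 against day 2, −2.85 ± 1.28 for day 7 against day 4 and 0.36 ± 1.35 for day 14 against day 7 (edgeR adjusted p = 0.323, 0.368 and 0.889 in that order), and −2.49 ± 1.24 for day 14 against day 4 (adjusted p = 0.131). The libraries of PDMS day 7 lay below those of PDMS day 4 without overlap, as was the case, in either direction, for 11% of genes, while 0.147% were called. On plastic, day 7 against day 4 gave −2.22 ± 1.27, day 14 against day 7 gave 0.00 ± 1.23 and day 14 against day 4 gave −2.22 ± 1.15 (edgeR adjusted p = 0.346, 1 and 0.138 in that order). With 1 library left out these ran from −6.20 to −0.93, from −1.11 to 3.98 and from −3.33 to −0.92 in the same order. The ends nearest 0 for day 7 and day 14 against day 4 came without Plastic day 4 replicate 3, the library at 23.5 CPM, and −6.20 and 3.98 came without Plastic day 7 replicate 3. Mmp9 thus missed the threshold on plastic, and the difference between the substrates in the change by day 14 against day 4 was −0.27 ± 1.55 on the log2 scale, with a 95% interval of −3.48 to 2.94 (edgeR adjusted p = 0.990).

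Mmp3 encodes stromelysin-1, which cuts proteoglycans, laminin and fibronectin and is known to activate the precursor of Mmp9. Its reads were also few, from 0 to 315 per library. On PDMS its level was 6.58, 13.6, 1.44 and 5.37 CPM at day 2, 0.699, 13.6, 1.02 and 0.440 CPM at day 4, 0.790, 4.52, 1.51 and 1.27 CPM at day 7, and 0.818, 0.423, 1.11 and 5.51 CPM at day 14. On plastic it was 0.574, 0.831, 0.178 and 0.341 CPM at day 4, 0.218, 0.293 and 0.747 CPM at day 7, and 7.58, 6.02, 5.18 and 0 CPM at day 14. The 0 is replicate 4 of Plastic day 14, where up to 0.161 CPM would go unseen. A single library stood far above its group in PDMS day 4 (replicate 2), PDMS day 7 (replicate 2) and PDMS day 14 (replicate 4), and 3 of 4 libraries of Plastic day 14 lay above all 7 earlier plastic libraries. The means on PDMS were 6.75 ± 5.08 CPM at day 2, 3.94 ± 6.44 CPM at day 4, 2.02 ± 1.69 CPM at day 7 and 1.97 ± 2.38 CPM at day 14 (SD, n = 4 each). On plastic they were 0.481 ± 0.284 CPM at day 4 (SD, n = 4), 0.419 ± 0.286 CPM at day 7 (SD, n = 3) and 4.70 ± 3.28 CPM at day 14 (SD, n = 4). The highest mean was that of PDMS day 2, followed by Plastic day 14, then by PDMS at days 4, 7 and 14 in that order, then by plastic at days 4 and 7, and all neighbours overlapped. Mmp3 sits in a cluster of metalloproteinase genes, next to Mmp1 in the GRCr8 table, and reads of near-identical stretches in related genes may have been split or lost in counting.

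On plastic, Mmp3 rose by 3.26 ± 1.19 on the log2 scale between day 14 and day 4 (edgeR adjusted p = 0.0399). That comparison called 32.6% of all genes and called 14.3% higher. The Mmp3 values of the 2 groups overlapped because of the day 14 library with no read. Without that library, replicate 4, the difference was 3.68 (edgeR adjusted p = 0.0155). The call was lost in each of the other 7 fits with 1 library left out, at 2.93 to 3.66 (edgeR adjusted p = 0.0625 to 0.0832), and in limma-voom, at 1.83 (adjusted p = 0.408). Plastic day 14 against Plastic day 7 gave 3.48 ± 1.37 and Plastic day 7 against Plastic day 4 gave −0.22 ± 1.33 (edgeR adjusted p = 0.244 and 0.942). On PDMS every difference between days was negative and none was called. They were −0.77 ± 1.06 for day 4 against day 2, −0.97 ± 1.08 for day 7 against day 4, −0.03 ± 1.08 for day 14 against day 7, −1.002 ± 1.07 for day 14 against day 4 and −1.78 ± 1.09 for day 14 against day 2 (edgeR adjusted p = 0.672, 0.845, 0.989, 0.495 and 0.177 in that order). Without PDMS day 4 replicate 2, day 7 and day 14 against day 4 were 1.54 and 1.48. Day 14 against day 2 was called, at −3.10, without PDMS day 14 replicate 4 (edgeR adjusted p = 0.0440). The change by day 14 against day 4 differed between PDMS and plastic by −4.27 ± 1.60 on the log2 scale, a difference of differences that did not pass (unadjusted p = 0.0138, edgeR adjusted p = 0.687). It was −1.82 without PDMS day 4 replicate 2.

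**Figure D2:**
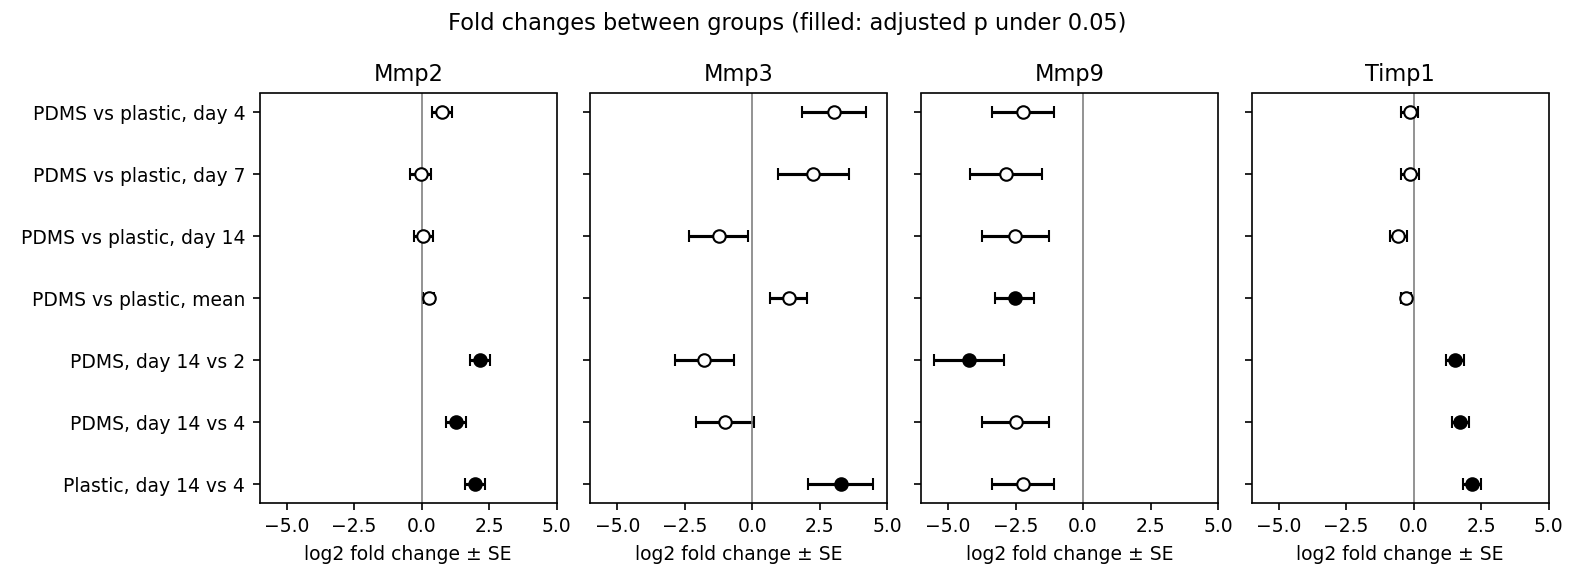
Log2 fold changes of the 4 genes (points) with 1 standard error either side (lines) for PDMS against plastic on each day and on average, and for day 14 against day 2 and day 4 on PDMS and against day 4 on plastic, with filled points for an adjusted p under 0.05. The standard errors of Mmp3 and Mmp9 are wider than those of Mmp2 and Timp1, and 6 of the 9 filled points belong to Mmp2 and Timp1.

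The comparison of substrates asked whether the soft elastomer changed these genes relative to plastic on the same day. At day 4, PDMS against plastic gave 0.75 ± 0.36 for Mmp2, 3.01 ± 1.18 for Mmp3, −2.23 ± 1.14 for Mmp9 and −0.14 ± 0.31 for Timp1 (edgeR adjusted p = 0.570, 0.432, 0.607 and 0.999 in that order). The Mmp3 value was 0.57 without PDMS day 4 replicate 2, the library at 13.6 CPM, and the Mmp9 value was −0.97 without Plastic day 4 replicate 3, the library at 23.5 CPM. At day 7 the same differences were −0.04 ± 0.39 for Mmp2, 2.26 ± 1.33 for Mmp3, −2.86 ± 1.34 for Mmp9 and −0.12 ± 0.34 for Timp1 (edgeR adjusted p = 0.972, 0.388, 0.267 and 0.883 in that order). All 4 PDMS libraries of day 7 lay above all 3 plastic libraries for Mmp3, but in that comparison 18.3% of genes were split without overlap. The Mmp9 value turned to 1.12 without Plastic day 7 replicate 3, the plastic library at 5.23 CPM. At day 14 the differences were 0.05 ± 0.36 for Mmp2, −1.25 ± 1.08 for Mmp3, −2.50 ± 1.25 for Mmp9 and −0.57 ± 0.31 for Timp1 (edgeR adjusted p = 0.981, 0.794, 0.568 and 0.619 in that order). With 1 library left out, the day 14 values ran from −2.58 to −0.92 for Mmp3 and from −3.41 to −1.39 for Mmp9. None of the 4 genes was called on any day. Of all genes, 0% were called at day 4, 0.849% at day 7 and 0% at day 14 by edgeR, while 1246 genes at day 4 and 1266 at day 14 had an unadjusted p under 0.05. DESeq2 called 24 genes at day 4 and 113 at day 14, and limma-voom 0 and 2.

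The intervals show what these libraries could resolve. For Mmp2 the 95% interval of PDMS against plastic, not adjusted for the number of genes, ran from 0.0012 to 1.496 on the log2 scale at day 4, from −0.84 to 0.76 at day 7 and from −0.69 to 0.80 at day 14. For Timp1 it ran from −0.79 to 0.51 at day 4, from −0.82 to 0.58 at day 7 and from −1.22 to 0.08 at day 14. Differences within the bounds that span 0 could not be resolved with these libraries. For Mmp3 the interval was 0.57 to 5.46 at day 4, −0.49 to 5.01 at day 7 and −3.49 to 0.99 at day 14. For Mmp9 it was −4.60 to 0.13 at day 4, −5.63 to −0.09 at day 7 and −5.09 to 0.09 at day 14. These bounds are several times wider than those of Mmp2 and Timp1.

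Averaged over days 4, 7 and 14, Mmp9 was lower on PDMS than on plastic, with a log2 difference of −2.53 ± 0.72 and a 95% interval of −4.02 to −1.04 (edgeR adjusted p = 0.0354). In that comparison 7.04% of genes were called and 5.41% were called lower. The call was lost in 12 of 23 fits with 1 library left out. Without Plastic day 7 replicate 3 the difference was −1.20 (edgeR adjusted p = 0.415), and in the other 11 it stayed between −2.61 and −2.10 (edgeR adjusted p = 0.0524 to 0.0677). The remaining fits kept the call. It was also lost with the replicate number as a block, at −2.02 (edgeR adjusted p = 0.144), and in limma-voom, at −1.41 (adjusted p = 0.420). The other genes were not called in the average: 0.25 ± 0.21 for Mmp2, 1.34 ± 0.68 for Mmp3 and −0.28 ± 0.19 for Timp1 (edgeR adjusted p = 0.529, 0.258 and 0.409 in that order). No change between days was called different on PDMS and plastic for any of the 4 genes, or for any other gene (edgeR, 0% in each of the 3 differences of change). At an edgeR unadjusted p under 0.05 those differences held 419, 980 and 971 genes for day 7 against day 4, day 14 against day 7 and day 14 against day 4. Among all tested genes, DESeq2 called 0, 1 and 4 in that order, and limma-voom called 0 in each.

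The spread between replicates differed between the genes. The biological coefficient of variation, the relative spread between libraries of a group beyond counting error, was 0.355 for Mmp2 and 0.314 for Timp1, against a median of 0.243 over all tested genes. For Mmp3 it was 1.01 and for Mmp9 1.07, higher than in 97.3% and 98.2% of tested genes. Single libraries therefore weigh more in the results for Mmp3 and Mmp9 than in those for Mmp2 and Timp1.

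The level of each protease relative to its inhibitor was taken within each library as the log2 ratio of counts, with 0.5 added to each count. This ratio removes the library's depth but not the lengths of the transcripts, so only differences between groups can be read from it. Mmp2 over Timp1 averaged 1.55 ± 1.48 at PDMS day 2, 2.80 ± 0.28 at PDMS day 4, 3.03 ± 0.47 at PDMS day 7 and 2.48 ± 0.90 at PDMS day 14 (SD, n = 4 each). On plastic it averaged 1.93 ± 0.07 at day 4 (SD, n = 4), 2.92 ± 0.27 at day 7 (SD, n = 3) and 1.80 ± 0.51 at day 14 (SD, n = 4). At day 4 the ratio was 2.45 to 3.02 in the PDMS libraries, all above the 1.87 to 2.04 of the plastic libraries, while neither gene alone was called. Of all genes, 2.11% had a count ratio to Timp1 that split those groups without overlap in either direction. Plastic day 4 replicates 1 and 2 are a closely alike pair, both in set A. On plastic the ratio was highest at day 7, and the day 14 ratio of 1.49 to 2.56 lay below the day 7 ratio of 2.62 to 3.15 without overlap. That split was common, since 78.1% of genes showed one in their ratio to Timp1.

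**Figure D3:**
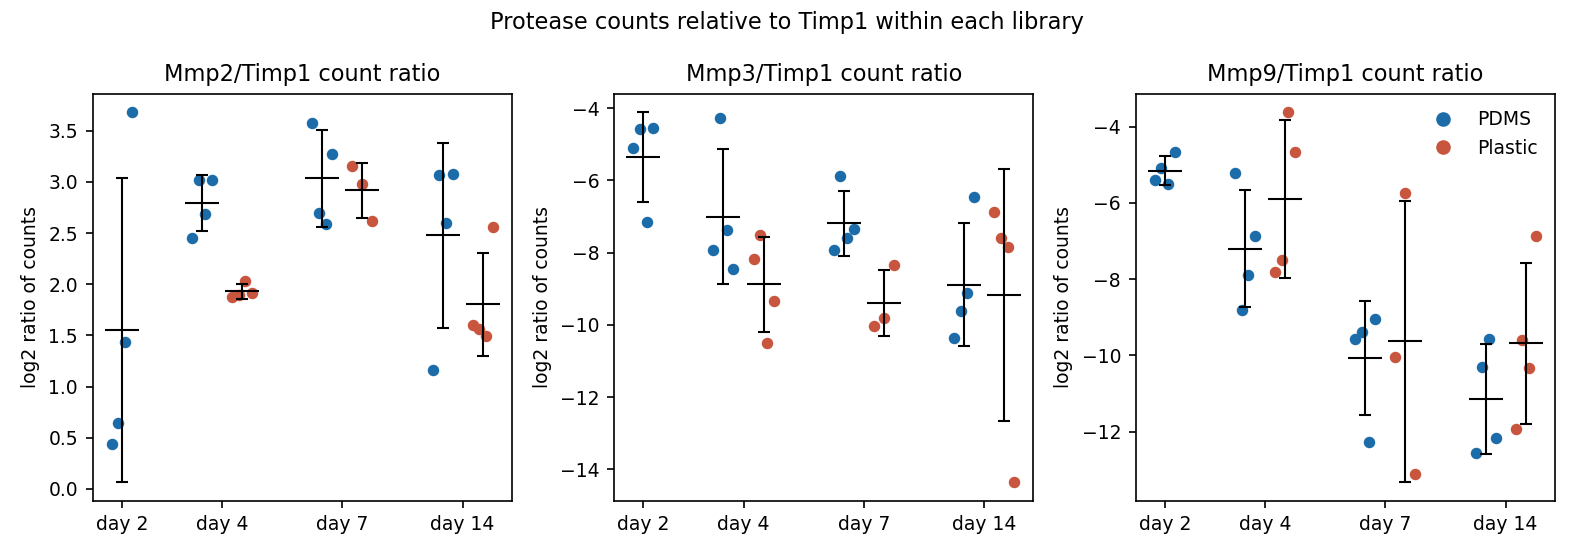
Log2 ratio of counts of Mmp2, Mmp3 and Mmp9 to Timp1 in each library (points) by day, with PDMS left of plastic, and the group mean and standard deviation (lines). The Mmp2 ratio of the PDMS libraries at day 4 (2.45 to 3.02) lies above that of the plastic libraries (1.87 to 2.04), and the Mmp9 ratio is lower at days 7 and 14 than at day 2 on PDMS.

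Mmp9 over Timp1 had a mean log2 ratio of −5.16 ± 0.38 at PDMS day 2, −7.20 ± 1.54 at PDMS day 4, −10.07 ± 1.49 at PDMS day 7 and −11.14 ± 1.44 at PDMS day 14 (SD, n = 4 each). On plastic the mean was −5.90 ± 2.08 at day 4 (SD, n = 4), −9.63 ± 3.69 at day 7 (SD, n = 3) and −9.68 ± 2.11 at day 14 (SD, n = 4). The PDMS libraries of days 7 and 14 (−12.55 to −9.05) all lay below those of day 2 (−5.52 to −4.66). Against day 2, ratios to Timp1 split without overlap for 15.3% of genes at day 7 and for 50.9% at day 14. The plastic groups overlapped the PDMS groups of the same day. For Mmp3 over Timp1 the means were −5.34 ± 1.24 at PDMS day 2, −7.00 ± 1.87 at PDMS day 4, −7.18 ± 0.90 at PDMS day 7 and −8.89 ± 1.70 at PDMS day 14 (SD, n = 4 each). On plastic they were −8.88 ± 1.31 at day 4 (SD, n = 4), −9.40 ± 0.91 at day 7 (SD, n = 3) and −9.16 ± 3.48 at day 14 (SD, n = 4). The mean at Plastic day 14 carries the library with no Mmp3 read, at −14.35, and the other 3 libraries of that group lay between −7.84 and −6.88.

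Some libraries shared on/off genes that the labels do not explain. Set A, 5 plastic libraries (day 4 replicates 1 and 2, day 7 replicate 1, and day 14 replicates 2 and 3), had ENSRNOG00000005826 at 0.218 to 0.793 CPM, against 8.09 to 21.2 CPM in the rest, and 17 of 14258 genes separated it without overlap. Set B, 6 libraries (PDMS day 2 replicate 1, day 4 replicates 1 and 3 and day 14 replicate 3, and Plastic day 7 replicate 3 and day 14 replicate 4), had ENSRNOG00000042547 at 22.7 to 35.1 CPM, against 0.0395 to 0.486 CPM in the rest, and 4 genes separated it. Both sets were found after the data were seen, and the labels do not say whether they mark an animal or an isolation. Set A holds only plastic libraries, 5 of the 11, so part of any difference between set A and the rest falls into the comparison of substrates. Mmp9 was highest in a set B library in 4 of the 5 groups that hold one, and the library with no Mmp3 read is also in set B. With the set as a term in the fit beside the group, set B differed from the rest by 1.51 ± 0.76 for Mmp9 and by −1.69 ± 0.82 for Mmp3 (edgeR adjusted p = 0.249 and 0.235), a test that called 2.13% of genes. Set A differed by −2.13 ± 1.08 for Mmp9 (edgeR adjusted p = 0.373), where 0.267% of genes were called. With that term the average of PDMS against plastic for Mmp9 was −3.03 (edgeR adjusted p = 0.0361), with set B left out it was −1.44 (edgeR adjusted p = 0.349), and with set A left out it was −3.16 (edgeR adjusted p = 0.0554). Leaving out set B also took away the Mmp2 call for PDMS day 14 against day 4, at 0.88 (edgeR adjusted p = 0.198), and the Timp1 calls for PDMS and Plastic day 14 against day 7, at 1.41 and 2.09 against 1.40 and 1.85 with all libraries (edgeR adjusted p = 0.0787 and 0.167 without set B). Without set B those comparisons called 5.94%, 0.0977% and 0% of all genes in that order. Leaving out set A also lost the plastic calls of Timp1 for day 14 against day 7, at 1.44, and of Mmp3 for day 14 against day 4, at 3.85 (edgeR adjusted p = 0.600 and 0.283), and the Mmp3 call of any difference among the groups (edgeR adjusted p = 0.235). Without set A those tests called 0%, 0.338% and 43.2% of all genes in that order. Leaving out set B brought the fall of Mmp9 at Plastic day 14 against day 4 past the threshold, at −3.33 (edgeR adjusted p = 0.0346).

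**Figure D4:**
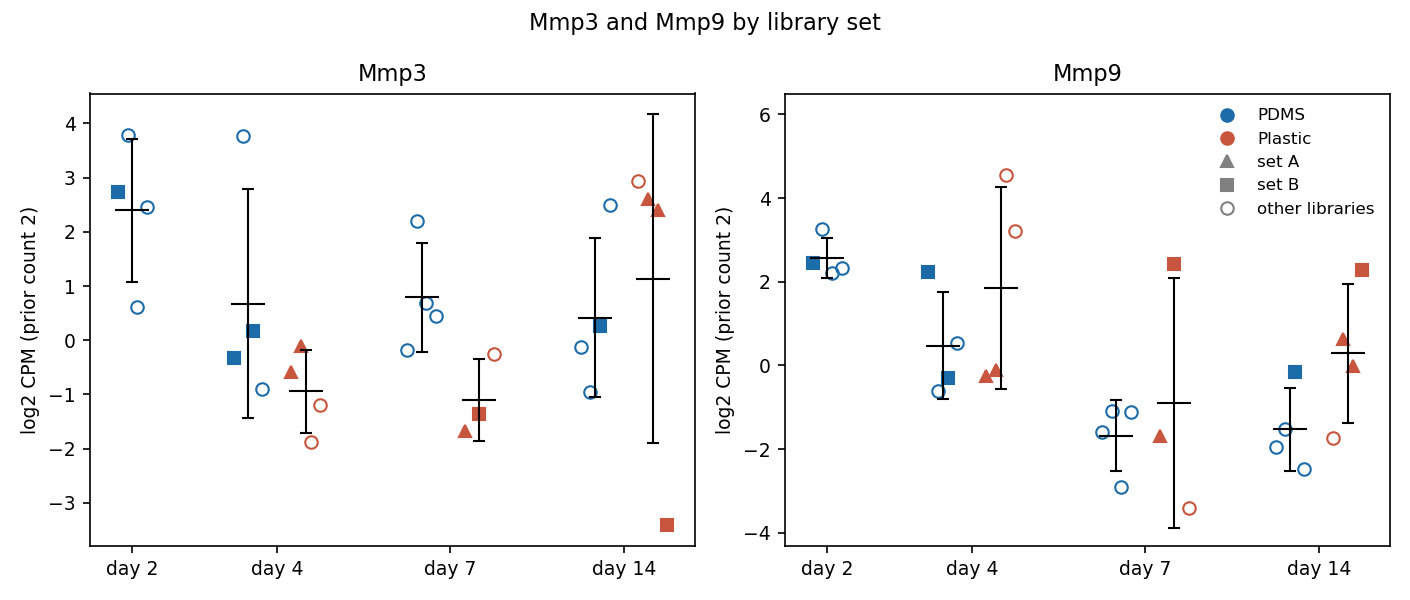
Log2 CPM (prior count 2) of Mmp3 and Mmp9 in each library by day, with PDMS in blue to the left of plastic in red, triangles for set A, squares for set B, open circles for the other libraries, and the group mean and standard deviation (lines). In 4 of the 5 groups that hold a set B library, the highest Mmp9 value is that of a set B library, and the lowest Mmp3 value at Plastic day 14 is one too.

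Across the libraries the 4 genes did not move as 1 group. Pearson's r of log2 CPM over the 27 libraries was 0.61 for Mmp2 with Timp1 and −0.47 for Mmp2 with Mmp9, and between −0.20 and 0.21 for the other 4 pairs. Over deviations from the group means, Mmp2 with Timp1 gave −0.15 and Mmp2 with Mmp9 gave 0.22, so the relation over all libraries came from differences between groups. Within groups, Mmp3 with Timp1 gave 0.41 and Mmp3 with Mmp9 gave −0.44. These are descriptions over libraries that share groups and library sets.

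By the highest Pearson's r of log2 CPM over the 27 libraries, the gene most like Mmp2 was ENSRNOG00000003869 (r = 0.95, 7.68 to 336 CPM). The closest to Timp1 was ENSRNOG00000014055 (r = 0.88, 7.40 to 20.1 CPM). For Mmp3 it was ENSRNOG00000032832 (r = 0.87, 0 to 19.7 CPM), and for Mmp9 it was ENSRNOG00000010805 (r = 0.82, 1.72 to 229 CPM). Mmp2 had the closest match of the 4 genes.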

How the data were processed

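RNA from 27 libraries was sequenced on a HiSeq2000 from TruSeq RNA v2 libraries made with 200 ng of RNA, per the labels. The authors deposited raw counts, as whole numbers per Ensembl rat gene ID. Per the series design text and the submitters' processing notes, FastQC 0.11.2, bamUtil 1.0.11, dupRadar 1.4, Cufflinks 2.2.1 and STAR were used. The sources used here do not give the genome build, annotation, counting program or strand setting, and reads of overlapping or near-identical genes may have been shared or split. Depth-scaled and variance-stabilised tables were not used, and 1 of the 28 count columns matched no listed sample and was left out.

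Counts were fitted with edgeR 4.0.16 in R 4.3.3, by quasi-likelihood with 1 mean per group, 20 residual degrees of freedom, trimmed mean of M values scaling and edgeR's default expression filter (minimum count 10, minimum total 15), which kept 14258 genes. Of the 32753 IDs, 11756 had no read, and the kept genes held at least 99.9% of each library's reads. P-values were adjusted over all kept genes by Benjamini-Hochberg. Standard errors are the fold change divided by the square root of its F value. Log2 CPM used a prior count of 2. The fits were checked on simulated data. DESeq2 1.42.0, limma-voom (limma 3.58.1), no filter, library-size scaling, the compared groups alone, a replicate block, and leaving out single libraries were the alternatives.

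All 4 genes are named in every comparison, and for each gene the ID with the highest Pearson's r over 27 libraries is named. The genes and lists were chosen with earlier results of these data known. Lists of related protease genes and of cell type markers were not tested, because none of the IDs could be matched to a symbol in the RefSeq table. Same-numbered libraries deviated together in PDMS day 4 and day 2 (r = 0.14 to 0.57 for all 4 pairs), where the replicate block changed no call of the 4 genes. In every other comparison at least 1 pair was under 0.1. The most alike libraries, Plastic day 14 replicates 2 and 3 and Plastic day 4 replicates 1 and 2, differed by 2.83 and 4.26 times the counting variance, above sampling noise, and were kept as separate libraries.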

Additional observations from a re-analysis of the deposited data

Results flagged for a closer look

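In 8 of the 42 groups of values tested, 1 library stood apart from the other 3 by Dixon's criterion at the 95% level. About 2.1 would by chance if the values were normal and the groups independent. The CPM values were not on a log scale and the ratios reuse the same counts, so 2.1 is not a fair chance rate here. For Mmp3, PDMS day 4 replicate 2 was highest at 13.6 CPM (others 0.440 to 1.02 CPM), and PDMS day 14 replicate 4 was highest at 5.51 CPM (others 0.423 to 1.11 CPM). For Mmp9, PDMS day 2 replicate 2 was highest at 9.57 CPM (others 4.55 to 5.37 CPM). For Timp1, PDMS day 4 replicate 2 was highest at 263 CPM (others 162 to 175 CPM), so the same library was flagged as the highest of its group for both Mmp3 and Timp1. Without being flagged, it was also the highest for Mmp2, at 2128 CPM (others 952 to 1314 CPM). For Mmp9 it was the lowest, at 0.561 CPM (others 0.713 to 4.63 CPM). For Mmp2, Plastic day 14 replicate 1 was lowest at 2721 CPM (others 3317 to 3428 CPM).

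Plastic day 14 replicate 4, the library with no Mmp3 read, had the highest log2 ratio of Mmp2 to Timp1 in its group, at 2.56 (others 1.49 to 1.60), and the lowest of Mmp3 to Timp1, at −14.35 (others −7.84 to −6.88). The log2 ratio of Mmp9 to Timp1 was lowest in PDMS day 7 replicate 3, at −12.28 (others −9.57 to −9.05).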

How the results depend on the processing

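Between pairs of groups, the calls that held in every alternative run and with each library left out in turn were those of Mmp2, Mmp9 and Timp1 for PDMS day 14 against day 2 and of Timp1 for PDMS day 14 against day 4. For Mmp2 and Timp1 the calls of any difference among the 7 groups held as well. Those of Mmp2 and Timp1 for Plastic day 14 against day 4 were lost only without set A, at 1.54 and 1.47 (adjusted p = 0.154 and 0.109), where each plastic group keeps 2 libraries. Calls of Mmp3, and of Mmp9 between substrates, depended on the setting, and the cause was not tested.

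For PDMS against plastic averaged over days, Mmp9 was −2.02 with the replicate block (adjusted p = 0.144), −1.41 in limma-voom (0.420), −1.44 without set B (0.349) and −3.16 without set A (0.0554). For Plastic day 14 against day 4, Mmp3 was 3.27 without the filter (0.0516), 1.83 in limma-voom (0.408), 3.29 in the groups alone (0.0809), 3.35 with alike pairs summed (0.106) and 3.85 without set A (0.283). Without set B, Mmp2 at PDMS day 14 against day 4 was 0.88 (0.198) and Mmp9 at Plastic day 14 against day 4 became called at −3.33 (0.0346). Timp1 at Plastic day 14 against day 7 lost its call in 7 alternatives, at 1.44 to 2.09 against 1.85 with all libraries (adjusted p = 0.0524 to 0.600). Those alternatives called between 0 and 13 of all genes there. Mmp2 gained calls for Plastic day 7 against day 4 in DESeq2 (0.0333) and with the library set block (0.0484), and for PDMS day 14 against day 7 in the groups alone (0.0379). Of all genes, those runs called 2.72%, 3.18% and 15.5% in that order. Mmp3's difference among the 7 groups lost its call in 5 alternatives (adjusted p = 0.0524 to 0.403) and Mmp9's in limma-voom (0.0580).

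Uncalled differences changed sign as follows. With library sizes in place of scaling, Mmp2 at day 7 was 0.089 between substrates. Mmp9 at Plastic day 14 against day 7 was −0.094 with library sizes, −0.024 without the filter, −0.0087 in DESeq2 and −0.026 in the groups alone. With the replicate block, Mmp3 was 0.40 at PDMS day 14 against day 7, 0.0021 at PDMS day 14 against day 4 and 0.30 at Plastic day 7 against day 4. In limma-voom, Mmp3 was 0.074 at PDMS day 7 against day 4. With the library set block, Mmp2 between substrates at day 14 was −0.088, Mmp3 was 0.33 and Mmp9 −0.27 at PDMS day 14 against day 7, and Mmp3 was 0.46 at Plastic day 7 against day 4. Without set B, Mmp2 between substrates was 0.037 at day 7 and −0.0051 at day 14, Mmp9 was 1.12 at day 7, Mmp3 was 0.046 at PDMS day 4 against day 2, and Mmp3 was 0.16 and Mmp9 −0.55 at PDMS day 14 against day 7. Without set A, Mmp2 between substrates at day 7 was 0.059, Mmp3 at Plastic day 7 against day 4 was 0.98 and Mmp9 at Plastic day 14 against day 7 was −0.082. For the difference of substrates in day 7 against day 4, Timp1 was −0.011 with the replicate block, −0.0079 in DESeq2, −0.015 in limma-voom, −0.16 with the library set block and −0.064 without set B. Mmp3 was 0.26 in limma-voom, and Mmp9 was 0.64 in limma-voom, 1.44 with the library set block and 4.27 without set B. For day 14 against day 7, Mmp9 was −0.68 with the replicate block, −1.38 in limma-voom, −1.72 with the library set block and −3.42 without set B, where Mmp2 was −0.042. For day 14 against day 4, Mmp9 was 0.85 without set B, and without set A Mmp9 was 0.23 and Timp1 0.26.

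With 1 library left out, PDMS against plastic gave −0.33 to 0.057 for Timp1 at day 4, −0.20 to 0.060 for Mmp2, −3.43 to 1.12 for Mmp9 and −0.24 to 0.0079 for Timp1 at day 7, −0.060 to 0.17 for Mmp2 at day 14, and −2.87 to −1.20 for Mmp9 on average. On PDMS, Timp1 gave −0.38 to 0.0026 and Mmp2 0.59 to 1.60 at day 4 against day 2, Mmp3 −1.70 to 1.54 at day 7 against day 4, Mmp3 −1.36 to 0.70, Mmp9 −0.55 to 0.68 and Timp1 1.01 to 1.61 at day 14 against day 7, Mmp2 1.14 to 1.59 and Mmp3 −2.33 to 1.48 at day 14 against day 4, and Mmp3 −3.10 to −1.19 at day 14 against day 2. On plastic, Mmp2 gave 1.17 to 1.56 and Mmp3 −0.90 to 0.19 at day 7 against day 4, Mmp9 −1.11 to 3.98 and Timp1 1.72 to 2.03 at day 14 against day 7, and Mmp3 2.93 to 3.68 at day 14 against day 4. Differences of substrates in day 7 against day 4 were −1.50 to 1.73 for Mmp3, −1.85 to 3.36 for Mmp9 and −0.15 to 0.24 for Timp1. Those in day 14 against day 7 were −0.022 to 0.25 for Mmp2 and −3.62 to 1.47 for Mmp9, and in day 14 against day 4 −1.54 to 0.84 for Mmp9. Mmp3's adjusted p among the 7 groups was 0.00865 to 0.0932 and lost its call in 19 of 27 fits.

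The library set block, the fits without set A or set B and the summed pairs were chosen after seeing the data. Mmp9 had too few reads in the groups-alone fits of PDMS against plastic at day 7 and PDMS day 14 against day 7. The replicate block changed no call other than the 2 given (Mmp9 between substrates and Mmp3 among the 7 groups).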
